A study of Mus musculus with 3 samples.

Results

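Basophils and mast cells of the mouse cochlea were taken as the cell barcodes that held transcripts of 2 granule proteases and of the high-affinity IgE receptor. A kept barcode had at least 500 UMIs (unique molecular identifiers, each standing for 1 captured RNA molecule), at least 200 genes and at most 20% mitochondrial UMIs. A member was a kept barcode with at least 3 UMIs of Mcpt8 and Cpa3 together and at least 1 UMI of Fcer1a and Ms4a2 together. The rule found 351 members among 37188 kept barcodes, out of 39092 deposited.

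The cochleae came from C57BL/6J mice, an inbred strain, of 3 groups with 1 library each, and each library pooled 6 mice. The NIHL (noise-induced hearing loss) mice heard noise of 115 dB for 4 h on 3 days, the HHL (hidden hearing loss) mice heard 110 dB for 2 h, and the control mice heard none. Exposed cochleae were collected 6 h after the last noise. A numeric suffix on each barcode separates the libraries, and it matches no label, so they are called libraries 1, 2 and 3, stand in no group and are described without a test. The labels used here state no age.

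Basophils are rare granulocytes that form in bone marrow, circulate in blood and carry IgE on the receptor whose chains include those encoded by Fcer1a and Ms4a2. Cross-linking of that receptor releases histamine and starts the secretion of interleukin 4 and other cytokines. Mast cells share the receptor and the protease Cpa3 but settle in connective tissue and mucosa, and in mice they carry other chymases and tryptases (Mcpt4, Cma1, Tpsb2), whereas Mcpt8 and Prss34 are known as basophil proteases.

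Library 1 held 144 members of 16883 kept barcodes, or 0.853% (exact Clopper-Pearson 95% interval 0.720 to 1.0%). Library 2 held 90 of 9602, or 0.937% (0.754 to 1.15%), and library 3 held 117 of 10703, or 1.09% (0.905 to 1.31%). The 3 intervals overlap, and they cover counting error alone, not differences between mice or dissections. Members had medians of 6309.5, 8733.5 and 9684 UMIs in libraries 1, 2 and 3, against 5456, 6275.5 and 8076 in the other kept barcodes. Mitochondrial UMIs made up a median of 4.19%, 2.67% and 2.92% of a member's UMIs, against 3.05%, 2.20% and 2.89% in the others. Scrublet called 12, 7 and 4 members doublets (8.33%, 7.78% and 3.42%), against 5.61%, 4.66% and 4.74% of the other kept barcodes. Of the members, 2 carry a barcode sequence that also occurs in another library.

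Mcpt8, the basophil granule protease, chose most members. It had 10862 CPM (summed UMIs of the gene, scaled to an equal total over all genes) in library 1, with an exact Poisson 95% interval of 10678 to 11048, 11929 CPM (11709 to 12152) in library 2 and 6450 CPM (6320 to 6581) in library 3. Cpa3, carboxypeptidase A of mast cells and basophils, had 1840, 2905 and 1826 CPM. Ms4a2, the beta chain of the IgE receptor, had 918, 742 and 715 CPM, and Fcer1a, the alpha chain that binds IgE, had 364, 555 and 126 CPM. Fcer1a was lowest in library 3, where 75 of 117 members had no UMI of it, against 65 of 144 in library 1 and 31 of 90 in library 2. All 4 genes were seen together in 73, 53 and 36 members. The members were chosen by these 4 genes, so the values are a description.

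The members' hold on these genes varied. Members carried 93.8%, 96.2% and 91.7% of all Mcpt8 UMIs in the kept barcodes of libraries 1, 2 and 3, and 98.5%, 96.1% and 95.3% of those of Fcer1a. They carried only 55.3%, 79.2% and 76.1% of those of Ms4a2. A UMI of the receptor without the protease minimum was found in 731, 150 and 267 kept barcodes, nearly always of Ms4a2 (724, 137 and 261). Of these, 557, 83 and 178 had at least 10 UMIs of Elane and Mpo, the neutrophil elastase and myeloperoxidase of granulocyte progenitors.

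At the threshold, 3, 4 and 4 members had a protease sum of exactly 3, while 18, 9 and 20 kept barcodes with a receptor UMI had a sum of 2 and stayed outside. Members with a sum of 3 to 5 had 13.3, 544 and 54.6 CPM of Prss34 and 227, 316 and 91.0 CPM of Cd200r3. They also had 4870, 1403 and 5021 CPM of Elane and 8339, 2846 and 2692 CPM of Mpo. All members together had 1254, 667 and 1066 CPM of Elane and 2749, 1868 and 1943 CPM of Mpo. The barcodes just outside had 6.82, 88.2 and 0 CPM of Prss34 and 20.5, 388 and 1.67 CPM of Cd200r3. In library 2 the 9 barcodes just outside were thus near the members just inside for Cd200r3, and in libraries 1 and 3 they lay well under them.

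**Figure D1:**
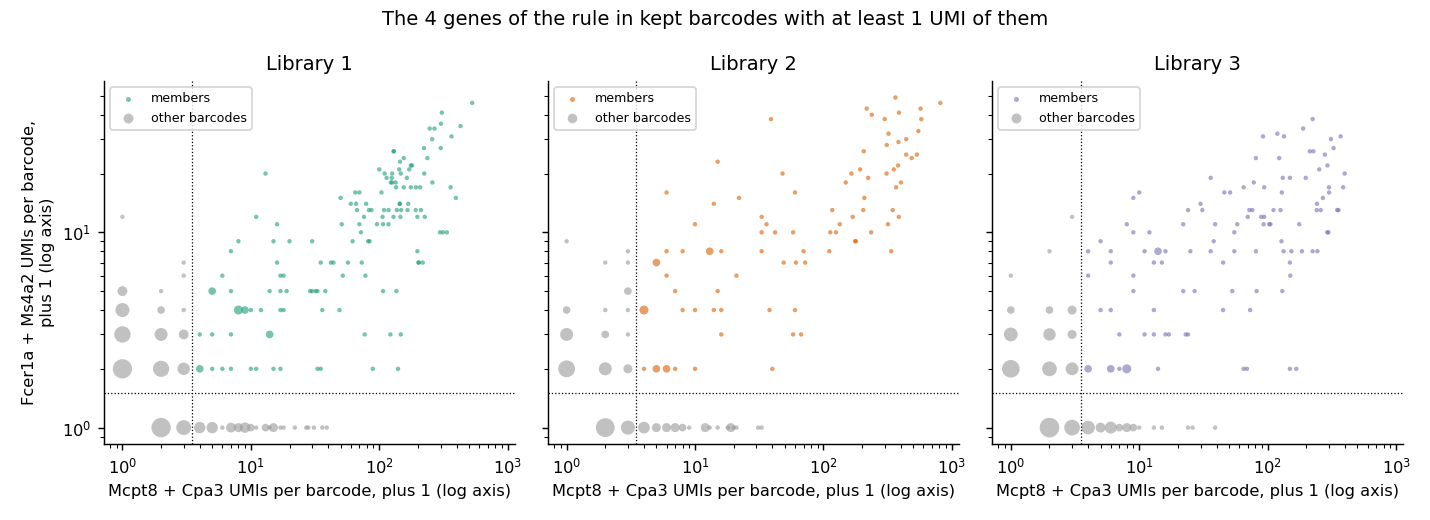
UMIs of Mcpt8 and Cpa3 together (horizontal) against UMIs of Fcer1a and Ms4a2 together (vertical), each plus 1 on log axes, for kept barcodes of the 3 libraries with at least 1 UMI of the 4 genes. Coloured points are the 144, 90 and 117 members and grey points the other barcodes, point area grows with the number of barcodes at a position, and dotted lines mark the rule.

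Genes the rule did not name gave the members, summed together, the profile of basophils, but not every single member had it. In library 3, for instance, 1 member had 705 UMIs of Elane and Mpo, 5 of Mcpt8 and Cpa3 and 0 of Prss34. Outside the 4 genes of the rule, 125 of 5486 genes with enough counts (2.28%) were at least 4-fold higher in members than in the other kept barcodes of the same library in all 3 libraries, and 51 of 5466 (0.933%) were at least 4-fold lower. The count of lower genes was 203 with the mean of per-barcode CPM, 107 without called doublets and 3 against progenitor-type barcodes alone (those with at least 10 UMIs of Elane and Mpo). Of the basophil list, 12 of the 15 genes that passed the count filter were among the higher ones and 1, Gpr141, was among the lower ones. The list's median log2 ratio was 5.53, 5.95 and 6.41 in libraries 1, 2 and 3, against 0.14, 0.08 and 0.08 over all genes. Genes of the same cells chose the members, and the list was chosen with earlier results of these data known. A higher gene also had to pass the count filter in members. These counts and ratios thus carry no test.

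Prss34, a tryptase-like protease of basophils, had 13514, 14668 and 9358 CPM in members, against 4.35, 4.58 and 5.25 CPM in the other barcodes. It was found in 128 of 144, 70 of 90 and 93 of 117 members. T-type barcodes, which should lack it, had a UMI in 2.35%, 1.5% and 4.59% of cases at median depths of 5194, 5125 and 6415.5 UMIs, against 88.9%, 77.8% and 79.5% of members at the depths above. Cd200r3, an activating receptor of basophils and mast cells, had 544, 391 and 275 CPM, against 0.146, 0.625 and 0.181 CPM in the others. Gata2, the transcription factor that basophils and mast cells both need, had 1273, 960 and 692 CPM, against 4.71, 7.91 and 7.31 CPM in the others. Prss34, Cd200r3 and Gata2 were each lowest in library 3, as was Mcpt8.

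Several members of the higher set have other known roles. Cyp11a1, the enzyme that starts steroid synthesis from cholesterol, had 406, 404 and 265 CPM in members, against 0.424, 1.11 and 0.321 CPM in the others. Csrp3, a LIM-domain protein best known from striated muscle, had 196, 328 and 252 CPM, against 0.308, 0.723 and 0.955 CPM. Hgf, hepatocyte growth factor, had 403, 327 and 250 CPM, against 8.71, 5.28 and 2.93 CPM. These genes were read in many members, Cyp11a1 in 125, 76 and 94, Csrp3 in 93, 70 and 90, and Hgf in 115, 72 and 89.

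**Figure D2:**
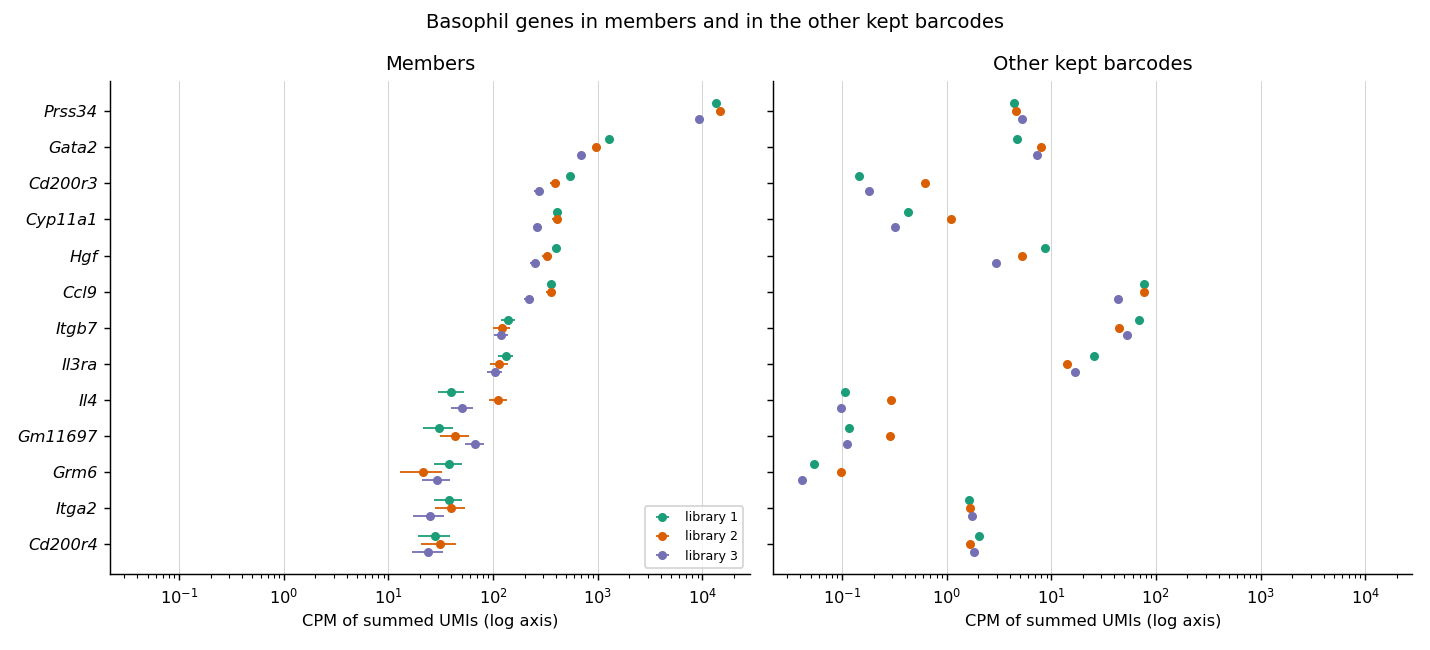
CPM of 13 basophil genes on a log axis in members (left) and in the other kept barcodes (right), 1 point per library, with exact Poisson 95% intervals for members. Prss34 lies between 9358 and 14668 CPM in members and between 4.35 and 5.25 CPM in the other barcodes.

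Mast cells were nearly absent from the members. At least 3 UMIs of 6 mast cell proteases (Mcpt4, Cma1, Tpsb2, Tpsab1, Mcpt1 and Mcpt2) were found in 0 of 144, 2 of 90 and 2 of 117 members. The share of 0 in library 1 had an exact 95% upper limit of 2.53%. The shares in libraries 2 and 3 were 2.22% (exact 95% interval 0.270 to 7.80%) and 1.71% (0.208 to 6.04%). Mcpt1 and Mcpt2, chymases of mucosal mast cells, were at 0 in all members.

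A single barcode in each of libraries 2 and 3 carried nearly the whole mast cell signal. The one in library 2 had 179 UMIs of Mcpt4, 143 of Cma1 and 77 of Tpsb2, with 8 UMIs of Mrgprb1 and none of Mcpt8. The one in library 3 had 120 UMIs of Mcpt4, 81 of Cma1 and 61 of Tpsb2, with 5 UMIs of Mrgprb1 and none of Mcpt8. They show the connective tissue type of mast cell set, Mcpt4 and Cma1 being its chymases, Tpsb2 its tryptase and Mrgprb1 one of its Mrgpr receptors. The other pair had Cma1 alone, 7 UMIs in library 2 and 6 in library 3, with Cpa3 at 38 and 47 UMIs and Kit, the stem cell factor receptor, at 5 and 8 UMIs. This pair also had 1 and 17 UMIs of Mcpt8, the basophil protease, and 0 of Prss34. The label thus rests on basophil genes, and its mast cell side on at most 4 of 351 barcodes.

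The chymase genes sit side by side, in the order Cma1, Cma2, Mcpt1, Mcpt2, Mcpt9, Mcpt4, Mcpt8, Ctsg in the RefSeq annotation. Mcpt8 was found in 324 members and its neighbour Mcpt4 in 2, while Ctsg, cathepsin G, on the other side was found in 288. In the tryptase group, Prss34 was found in 291 members, its neighbour Prss28 in 102 and Tpsb2 in 2. The starts of 3 of these genes are shown because the neighbours Mcpt8 and Mcpt4 were read in different members, while Prss34, on another chromosome, was read in most members, as Mcpt8 was. The letters are 250 bases before to 50 bases after each start, from RefSeq on GRCm38.p6, and capitals mark GATAA, the core bound by GATA factors, searched on both strands (on the other strand as TTATC).
Mcpt8, chr14:56085148-56085447, minus strand: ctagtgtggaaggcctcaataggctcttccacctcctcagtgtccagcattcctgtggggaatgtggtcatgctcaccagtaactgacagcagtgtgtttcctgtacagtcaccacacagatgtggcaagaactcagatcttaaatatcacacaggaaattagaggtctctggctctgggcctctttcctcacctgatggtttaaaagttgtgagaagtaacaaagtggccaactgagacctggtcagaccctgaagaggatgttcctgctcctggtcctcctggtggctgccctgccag
Mcpt4, chr14:56062261-56062560, minus strand: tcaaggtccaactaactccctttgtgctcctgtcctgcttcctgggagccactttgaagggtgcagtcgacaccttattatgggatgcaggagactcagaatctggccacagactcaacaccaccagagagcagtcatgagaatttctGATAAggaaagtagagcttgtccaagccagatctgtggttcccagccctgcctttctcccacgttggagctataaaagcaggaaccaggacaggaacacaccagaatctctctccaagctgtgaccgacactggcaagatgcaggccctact
Prss34, chr17:25298144-25298443, plus strand: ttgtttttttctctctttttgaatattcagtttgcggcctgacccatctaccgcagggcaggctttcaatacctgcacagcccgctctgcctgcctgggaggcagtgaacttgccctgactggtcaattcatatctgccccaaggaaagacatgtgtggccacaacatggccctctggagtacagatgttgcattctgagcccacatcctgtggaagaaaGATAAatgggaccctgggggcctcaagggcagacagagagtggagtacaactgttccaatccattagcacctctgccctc
GATAA occurs once in the windows of Mcpt4 and Prss34 and not in that of Mcpt8, and it occurs in 25.4% of all 32851 promoters of the same length. A match of letters is a description and shows no binding.

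**Figure D3:**
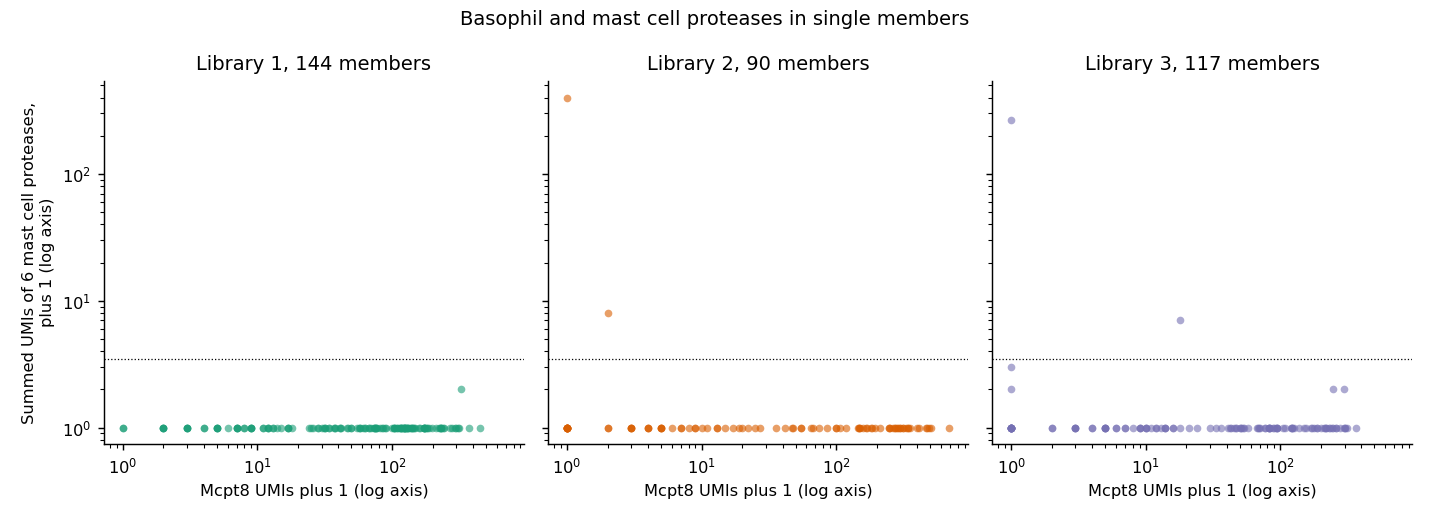
UMIs of Mcpt8 (horizontal) against summed UMIs of 6 mast cell proteases (vertical), each plus 1 on log axes, 1 point per member in the 3 libraries. The dotted line marks 3 UMIs, with 0, 2 and 2 members above it, and the highest point in libraries 2 and 3 has no Mcpt8.

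Histamine genes were high in members. Hdc, histidine decarboxylase, which makes histamine, had 1044, 1016 and 664 CPM, against 209, 113 and 88.6 CPM in the other barcodes. Slc18a2, the vesicular transporter that loads histamine into granules, had 405 CPM (370 to 442), 223 CPM (194 to 256) and 148 CPM (129 to 169), against 3.11, 2.82 and 2.58 CPM. It was highest in library 1, and the 3 intervals do not overlap. Of the histamine and granule list, 3 of 16 passing genes were at least 4-fold higher (Hdc, Slc18a2 and Cd63, a granule membrane protein), beside 2.28% of all genes, and none was lower. The list's median log2 ratio was 0.39, 0.81 and 0.45. Members held 4.49%, 8.49% and 7.08% of the Hdc UMIs of all kept barcodes, so most Hdc was outside them.

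The signalling genes downstream of the IgE receptor set members apart less. Lat2, an adaptor of that pathway, alone of 16 passing genes was at least 4-fold higher, beside 2.28% of all genes, with 180, 182 and 141 CPM in members, against 26.3, 17.4 and 21.3 CPM in the others. Fcer1g, the shared gamma chain, had 1169, 1321 and 1059 CPM, against 1045, 675 and 784 CPM. The list's median log2 ratio was -0.14, 0.11 and 0.19.

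Cytokine genes were often among the higher genes: 8 of 15 passing genes were at least 4-fold higher and 2 (Cxcl10 and Chil3) lower, beside 2.28% and 0.933% of all genes. Il4, the cytokine basophils are best known for, had 40.0 CPM (29.6 to 52.9), 112 CPM (91.3 to 135) and 50.8 CPM (39.9 to 63.8), against 0.108, 0.296 and 0.0976 CPM in the others. Its UMIs were in 34 of 144, 44 of 90 and 43 of 117 members, and members held 77.8%, 79.5% and 84.1% of all Il4 UMIs in kept barcodes. Library 2 was highest, and 1 barcode there held 21.0% of the UMIs. Il13, a further type 2 cytokine, had 15.5, 14.9 and 21.3 CPM in members, against 0.0231, 0.0767 and 0.00697 CPM.

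Il6, an inflammatory cytokine, had 432, 241 and 166 CPM in members, against 6.57, 2.22 and 12.5 CPM in the others, highest in library 1. Members held 38.3%, 52.8% and 11.9% of the Il6 UMIs of all kept barcodes. The chemokines Ccl3 and Ccl4, which draw leukocytes, had 1143, 1408 and 968 CPM and 2061, 2340 and 1542 CPM, against 20.4, 35.6 and 39.5 CPM and 36.7, 77.8 and 88.7 CPM in the others. Csf1, the macrophage growth factor, had 180, 195 and 147 CPM, against 9.95, 18.8 and 9.21 CPM. These chemokines were uneven among members: Ccl4 had a UMI in 100 of 144, 60 of 90 and 81 of 117 members and a highest value of 177, 276 and 144 UMIs in 1 member.

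Among cytokine receptors, 4 of 20 passing genes were at least 4-fold higher, beside 2.28% of all genes, and none lower. They were Il3ra, the receptor chain for interleukin 3 that drives basophil growth, Csf2rb2, its partner chain, Il1rl1, the interleukin 33 receptor, and Il18r1, the interleukin 18 receptor. Il3ra had 132, 115 and 104 CPM in members, against 25.8, 14.2 and 16.7 CPM in the others. Il1rl1 had 120, 158 and 118 CPM, against 1.85, 11.9 and 11.4 CPM. Of lineage transcription factors, 3 of 29 passing genes were higher, beside the same 2.28%: Gata2, Cebpa, which acts with Gata2 in basophil development, and Ikzf2, with 353, 388 and 220 CPM, against 13.2, 18.7 and 13.4 CPM.

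Members differed in a pair of genes the rule did not use. At least 10 UMIs of Elane and Mpo together were found in 59, 33 and 59 members, or 41.0%, 36.7% and 50.4%, called Mpo-rich, and 85, 57 and 58 were Mpo-poor. The split was chosen after values were seen. Elane and Mpo are made by granulocyte progenitors in bone marrow. T-type barcodes had a UMI of Mpo in 40.4%, 31.5% and 57.7% of cases at medians of 5194, 5125 and 6415.5 UMIs, against 80.6%, 74.4% and 87.2% of members at 6309.5, 8733.5 and 9684. Mpo had 335, 101 and 149 CPM in T-type barcodes, against 2749, 1868 and 1943 CPM in members. It had 744, 101 and 663 CPM in B-type barcodes and 711, 276 and 518 CPM in neutrophil-type barcodes.

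Mpo-rich members were deeper, with medians of 10905, 14024 and 13482 UMIs, against 4749, 5557 and 5611.5 in Mpo-poor members. At least 3 UMIs of 14 mitosis genes such as Top2a and Mki67 were found in 83.1%, 84.8% and 91.5% of Mpo-rich members, against 42.4%, 45.6% and 39.7% of Mpo-poor members. With each member thinned to 2000 UMIs, at least 1 mitosis UMI was found in 86.4%, 81.8% and 76.3% of Mpo-rich members, against 55.0%, 53.7% and 58.6% of Mpo-poor members, with 5, 3 and 0 shallower Mpo-poor members left out. The mitosis list's CPM sum was 2965, 3027 and 2696 in Mpo-rich members, against 2088, 2496 and 2320 in Mpo-poor members, so the difference in level was smaller than that in shares.

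In all 3 libraries 31 of 3826 genes (0.81%) were at least 2-fold higher in Mpo-rich members and 154 of 3636 (4.24%) at least 2-fold lower. On the cytokine list, 9 of 13 passing genes were lower, beside 4.24% of all genes, and none was higher. The cytokine list's median log2 ratio was -1.91, -1.90 and -1.91, against 0.06, 0.01 and -0.04 over all genes. Ccl4 had 580, 218 and 401 CPM in Mpo-rich members, against 4326, 5509 and 4283 CPM in Mpo-poor members. Ccl3 had 429, 263 and 230 CPM, against 2236, 3119 and 2743 CPM. Il4 had 16.2, 55.0 and 21.4 CPM, against 76.4, 196 and 121 CPM. In each of these, the highest Mpo-rich library lay under the lowest Mpo-poor library.

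Of the basophil genes, 8 of 12 passing genes were lower in Mpo-rich members, beside 4.24% of all genes, and none was higher. Mpo-rich were 22 of the 63 members with a protease sum of 3 to 9 and 49 of the 77 with 200 or more. Whether Mpo-rich members with few protease UMIs are basophils was not tested. Cd200r3 had 309, 146 and 144 CPM in Mpo-rich members, against 904, 759 and 591 CPM in Mpo-poor members. Cyp11a1 had 273, 188 and 171 CPM, against 609, 727 and 491 CPM. Prss34 stayed under the 2-fold threshold, with 10780, 11868 and 7607 CPM, against 17698, 18851 and 13568 CPM, as did Mcpt8, which the rule used. Hdc had 683, 582 and 441 CPM, against 1596, 1663 and 1201 CPM. Of the other receptors, Il18r1 (27.0, 8.88 and 15.6 CPM, against 116, 154 and 145 CPM) and C3ar1, the receptor of complement C3a (5.40, 7.1 and 4.86 CPM, against 55.7, 90.2 and 49.1 CPM), were among the lowest ratios.

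The genes higher in Mpo-rich members included further granule proteases of progenitors. Prtn3, proteinase 3, had 2752, 1170 and 2162 CPM in Mpo-rich members, against 163, 106 and 227 CPM in Mpo-poor members. Prss57, a serine protease of the same granules, had 112, 85.2 and 71.9 CPM, against 16.5, 18.6 and 2.34 CPM. Srm, which makes spermidine, had 97.2, 79.9 and 170 CPM, against 31.0, 18.6 and 51.4 CPM. Cdca7, a cell cycle gene, had 66.1, 76.3 and 71.9 CPM, against 8.26, 15.9 and 28.0 CPM. Of the granulocyte-monocyte progenitor list, 4 of 8 passing genes other than the splitting pair were higher, beside 0.81% of all genes, and none lower. None of the 11 S phase, 14 mitosis and 15 ribosomal protein genes that passed was at least 2-fold higher in all 3 libraries, beside 0.81% of all genes. Their median log2 ratios were still above those of all genes (0.06, 0.01 and -0.04) in each library. They were 0.80, 1.09 and 0.47 for S phase, 0.50, 0.24 and 0.36 for mitosis and 0.68, 0.87 and 0.28 for ribosomal proteins. Prg2 and Prg3, eosinophil granule genes held by a few members, were also among the higher genes.

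**Figure D4:**
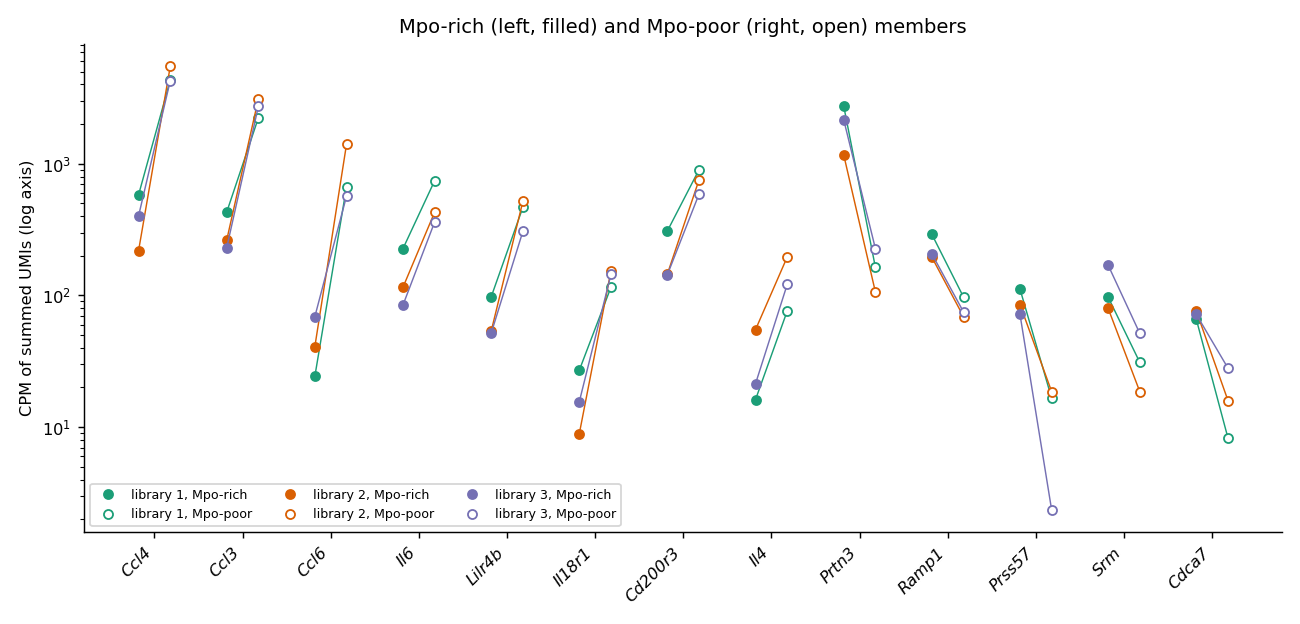
CPM of 13 genes on a log axis in Mpo-rich members (left, filled) and Mpo-poor members (right, open), joined within each library. The lines of the first 8 genes, from Ccl4 to Il4, climb towards Mpo-poor members in every library, and those of the last 5, from Prtn3 to Cdca7, climb towards Mpo-rich members.

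Members also varied in the amount of protease. They were binned by their protease sum, a description since the rule used it: 63 had 3 to 9 UMIs, 83 had 10 to 49, 128 had from 50 to under 200 and 77 had 200 or more. The bins differ in depth, with median UMIs of 6054, 5585, 6935 and 11108, low to high. From the lowest to the highest bin, Prss34 had 524, 3568, 18845 and 19316 CPM in library 1, 422, 1414, 14878 and 27399 CPM in library 2 and 164, 1540, 10066 and 29271 CPM in library 3. It thus followed the protease sum in each library. Cd200r3 had 232, 374, 667 and 641 CPM in library 1, 356, 262, 468 and 453 CPM in library 2 and 55.6, 209, 282 and 617 CPM in library 3, in strict order in library 3 alone. Ccl4 had 3127, 2463, 2375 and 743 CPM in library 1, 5634, 2595, 3413 and 670 CPM in library 2 and 1062, 2517, 1323 and 1314 CPM in library 3. The libraries did not share 1 order for Ccl4: the highest bin was the lowest in libraries 1 and 2, and the lowest bin was the lowest in library 3.

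Eosinophil genes were held by few members. Prg2, the major basic protein of eosinophil granules, with Prg3 and Epx reached 10 UMIs in 2, 2 and 4 members, found after values were seen. These held 358 of 368, 918 of 933 and 3139 of 3145 UMIs of the 3 genes. The 4 in library 3 had 2, 2, 2 and 9 UMIs of Mcpt8 and 0, 0, 0 and 16 of Prss34, and their sums of Mcpt8 and Cpa3 were 23, 5, 3 and 68 UMIs. Prg2, which is among the 125 genes higher in members, was thus held almost wholly by 8 barcodes.

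Between libraries, 154, 141 and 205 of 7258 genes were at least 2-fold higher in libraries 1, 2 and 3 than in the geometric mean of the other libraries (2.12%, 1.94% and 2.82%), and 146, 216 and 149 were at least 2-fold lower (2.01%, 2.98% and 2.05%). All 10 genes with the largest ratio between libraries owed at least 25% of a library's UMIs to 1 barcode, as did 389 of the 7258. Examples were Dct, a melanocyte gene, with 99.2% of its 507 UMIs in 1 barcode of library 2, and Jchain of plasma cells, with all 288 UMIs in 1 barcode of library 3. The haemoglobin gene Hbb-bs had 67.7, 8717 and 3077 CPM in members, against 976, 31114 and 17705 CPM in the other barcodes. For Hbb-bs 1 barcode held 57.8%, 46.1% and 62.1% of the UMIs, yet it was also read in 27 of 144, 90 of 90 and 114 of 117 members, with medians of 0, 9 and 6 UMIs. Nearly all members of libraries 2 and 3 thus held a UMI of it. This was not particular to members, since 22.4%, 100% and 97.4% of T-type barcodes of libraries 1, 2 and 3 also held one. Whether single barcodes that hold much of a gene's UMIs hold RNA of more than 1 cell was not tested.

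Interferon-stimulated genes differed between libraries in many members. All 16 passing genes of the list were highest in library 3, and 14 of 16 were at least 2-fold higher there, beside 2.82% of all genes. The list's median log2 ratio was -0.70, -0.99 and 1.62 in members of libraries 1, 2 and 3, against -0.61, -0.74 and 1.30 in the other kept barcodes and 0.09, -0.09 and 0.01 over all genes of members. Members thus shared the pattern of the library as a whole. Their summed level was lower than that of the other barcodes in each library, at 792, 746 and 2157 CPM, against 1829, 1886 and 4377 CPM.

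Ifitm3, a membrane protein that blocks virus entry, had 312 CPM (281 to 345), 293 CPM (259 to 329) and 893 CPM (845 to 943) in members, against 816, 882 and 1823 CPM in the others. Isg15, a ubiquitin-like modifier, had 18.8 CPM (11.9 to 28.2), 22.3 CPM (13.8 to 34.1) and 89.9 CPM (75.2 to 107), against 39.7, 78.6 and 225 CPM. Library 3 stood above both other libraries by more than its counting interval in both genes. In library 3 no single barcode held more than 9.07% of the members' Ifitm3 UMIs or 10.7% of their Isg15 UMIs.

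The interferon list was highest in library 3 in both kinds of member, at 621, 440 and 2215 CPM in Mpo-rich members and 1055, 1202 and 2019 CPM in Mpo-poor members of libraries 1, 2 and 3. Its median log2 ratio in library 3 was 2.34 in Mpo-rich members, against 1.25 in Mpo-poor members. Of the 10 genes with the largest ratio between libraries once single-barcode genes were set aside, 7 were highest in library 3: Ifi203, Rtp4, Mndal, Igtp, Isg15, Parp14 and Lrg1. The same filter on summed UMIs admitted these genes, so a gene high in 1 library passed more easily. Ifi203, an interferon-inducible gene, had 19.6, 3.19 and 81.0 CPM in members, against 64.6, 41.7 and 120 CPM in the others. Hist1h2ac, a histone gene, was highest in library 1 instead, with 184, 42.5 and 8.24 CPM, against 36.6, 15.3 and 6.90 CPM.

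**Figure D5:**
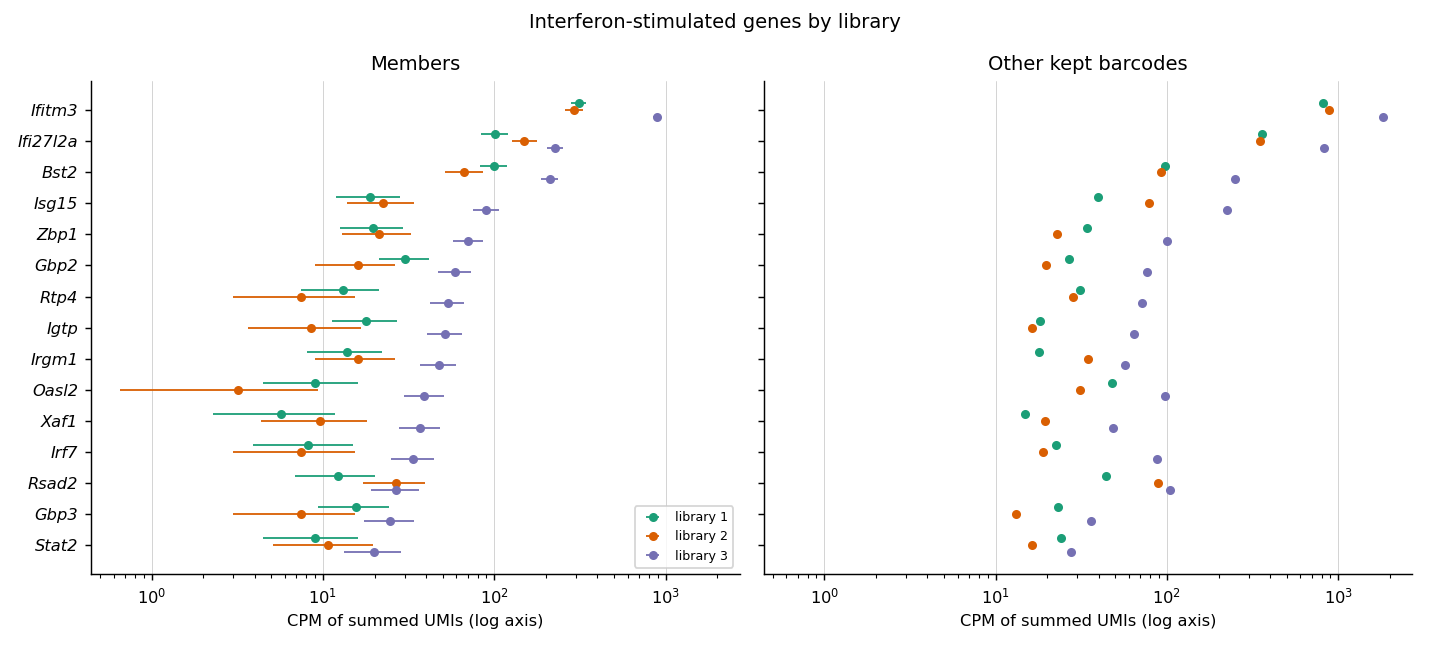
CPM of 15 passing interferon-stimulated genes on a log axis in members (left) and in the other kept barcodes (right), 1 point per library, with exact Poisson 95% intervals for members. Library 3 is the highest point of every gene in both panels.

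Heat shock genes were also highest in library 3 for 8 of 11 passing genes, beside 2453 of all 7258 genes. Of the 11, 4 were at least 2-fold higher there, beside 2.82% of all genes. The list's median log2 ratio was -0.18, -0.51 and 0.87 in members, against -0.85, -0.14 and 0.99 in the other barcodes. Hspa8, the constitutive chaperone, had 1119 CPM (1060 to 1180), 839 CPM (782 to 900) and 1920 CPM (1850 to 1993) in members, against 977, 1018 and 1985 CPM in the others. Immediate-early genes were highest in library 1 for 11 of 16 passing genes, beside 2973 of all 7258 genes, with a median log2 ratio of 0.50, -0.10 and -0.23 in members, against 0.23, -0.04 and 0.01 in the others.

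Markers of other cell types were read beside these results. S100a8, the neutrophil calcium-binding protein, had 12719, 4418 and 6277 CPM in members, against 51735, 31862 and 26937 CPM in the other barcodes. The median member held 8, 8 and 13 UMIs of it, and 1 barcode held 18.3%, 40.6% and 16.5% of the members' UMIs. T-type barcodes had 30241, 16274 and 8829 CPM. The 12 neutrophil markers summed to 36807, 11455 and 15634 CPM in members, and 5 of them were at least 4-fold lower than in the others. The 12 T and NK markers summed to 375, 357 and 436 CPM in members, against 233, 208 and 216 CPM in the other barcodes. Most of that sum was Nkg7, which is also on the granulocyte-monocyte progenitor list, with 367, 354 and 421 CPM in members, against 146, 89.0 and 113 CPM, while Cd3e, which defines T cells, had 0, 0 and 0.686 CPM in members. Igkc, an antibody light chain, had 1629 CPM in library 3, of which 1 barcode held 99.4%. The part of neutrophil, erythroid or plasma cell RNA in the results above was not tested.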

How the data were processed

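The authors deposited 1 table of UMI counts, made with Cell Ranger 7.1.0, per the file headers, on GRCm39, per the submitters' processing notes. How barcodes were called as cells is not given in the sources used here. Libraries held 132576349, 93048140 and 146324872 UMIs in 17720, 10028 and 11344 barcodes, and members 1225299, 940257 and 1456991 UMIs.

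Raw UMIs of members were summed per library and given as CPM. Each library is 1 sample, so no p-value is given, and intervals (exact Poisson and Clopper-Pearson, 95%) cover counting error alone. Members were set against other kept barcodes for genes with at least 20 UMIs per library, and libraries against each other for genes with at least 50 summed UMIs, with counts under 3 set to a floor of 3. The ratio functions were tested on simulated data. Doublet calls (scrublet, expected rate 6%, scanpy 1.11.5) were kept in the main values and left out as an alternative. T-type barcodes had at least 3 UMIs of Cd3d, Cd3e and Cd3g. B-type barcodes had at least 3 UMIs of Cd79a and Cd79b and at least 1 of Ms4a1. Neutrophil-type barcodes had at least 3 UMIs of Retnlg and at least 1 of Cxcr2. TMM factors came from edgeR 4.0.16.

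The members, the 34 gene lists and the tests were chosen with earlier results of these data known. Genes named are those of the rule, of the basophil and mast cell lists, the 20 highest and 10 lowest ratios to other barcodes, up to 4 per list by level or by ratio between libraries, the 10 largest ratios between libraries, and markers of other cell types. The Mpo split, the eosinophil-gene barcodes, the protease bins, the 10 largest ratios without single-barcode genes and a few further list genes (Lat2, Fcer1g, Il13, Csf1, Ikzf2, Il1rl1) were chosen after values were seen. Values of a few single genes are not reported here. Symbols are those of the file, where 1 of the 448 listed genes has no entry.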

Additional observations from a re-analysis of the deposited data

How the results depend on the processing

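No paired analysis was possible because each group has 1 library and the suffixes carry no replicate number. Of 127 summary values under an alternative setting, 98 kept their size and 29 moved. List medians were recomputed for the interferon and heat shock lists alone, and none of these changed sign. Medians of the other lists were not recomputed. The other values are shares and counts, which have no sign to change. Where no cause follows from the setting itself, the cause was not tested. The member share was 0.750% in library 2 with Mcpt8 alone, and 0.744% and 0.832% in libraries 2 and 3 with each barcode thinned to 2000 UMIs. Between libraries, a filter of 20 summed UMIs tested more genes and gave 356, 343 and 427 higher and 393, 511 and 354 lower in libraries 1, 2 and 3, and no filter gave 506, 632 and 542 higher and 527, 515 and 643 lower. Without single-barcode genes, a setting chosen after seeing the data like those on the Mpo split, 70 were lower in library 1 and 74 higher in library 2. Members over other barcodes gave 203 lower genes with the mean of per-barcode CPM, 107 without called doublets and 3 against progenitor-type barcodes (at least 10 UMIs of Elane and Mpo), and with at least 50 UMIs 69 higher and 29 lower. Against progenitor-type barcodes, 2 of the single genes reported changed sign, to 0.33 for Bpifa1 and 0.44 for Pf4 (log2). Of all 145 values of these genes under alternatives, 47 moved without a change of sign. In library 3 the interferon median was 1.25 in Mpo-poor and 2.34 in Mpo-rich members, and the heat shock median 0.67 with per-barcode CPM and 0.74 in Mpo-rich members; in library 2 the heat shock median was -0.88 in Mpo-poor members. With at least 50 UMIs, 15 genes were higher and 94 lower in Mpo-rich than in Mpo-poor members. The counts of 90 to 144 members limit genes with few UMIs.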
